A study of Mus musculus with 12 samples.

Results

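The 39 genes described here are antiviral genes that type I interferon is known to induce, such as Isg15, the Ifit and Oas families, Mx1 and Rsad2. They were listed by name, with earlier results of these data known. Ensembl identifiers matched them to the rows of a table of 15555 genes from mouse bone-marrow-derived macrophages. All 39 had a row, and all 39 were among the 12671 genes that passed the filter on low counts. There were 3 libraries of each genotype: wild type (WT), knockout of Cbl (Cbl-/-), knockout of its relative Cbl-b (Cbl-b-/-) and knockout of both (DKO). Cbl and Cbl-b are E3 ubiquitin ligases. All 4 groups shared the same culture. Marrow cells were grown to day 9 with L-cell supernatant as the source of the macrophage growth factor CSF-1, and adherent cells gave the RNA. No virus, interferon or other stimulus is named in the labels. Mouse strain, sex, age of the animals and the design of the knockout alleles are likewise not given in the sources used here.

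Type I interferons, the alpha and beta interferons, are secreted when a cell detects foreign or misplaced nucleic acid. They bind the receptor IFNAR, whose kinases JAK1 and TYK2 activate transcription factors, among them STAT2 with its partner IRF9, that bind the interferon-stimulated response element (ISRE) near the start of antiviral genes. Macrophages are known to hold a low level of this program without infection, kept up by small amounts of secreted interferon.

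The counts of the targeted genes bear on how the groups are named. Cbl was lower in Cbl-/- and in DKO than in WT, by log2 fold changes of -1.44 and -1.90. Cblb did not pass the threshold in Cbl-b-/-, at -0.17 (adjusted p = 0.46, SE 0.06), although all 3 libraries lay below WT, and in DKO it was higher than in WT, at 0.27 (adjusted p = 0.0027, SE 0.06) (edgeR's quasi-likelihood test with Benjamini-Hochberg adjustment, as for every adjusted p in the text). Cblb was also higher in Cbl-/- than in WT, at 0.20 (adjusted p = 0.048, SE 0.06). Between DKO and Cbl-/- it did not pass the threshold, at 0.07 (adjusted p = 0.46, SE 0.06). Cbl was lower in DKO than in Cbl-/-, at -0.45 (adjusted p = 5.1e-05, SE 0.06). A knockout allele that still yields RNA would not be seen in gene counts. Both groups are therefore named by their labels, as libraries labelled Cbl-b-/- or labelled DKO, and every direction drawn from them rests on the label. The labels say that RNA was pooled without saying what was pooled, and nothing says that the 3 libraries of a genotype came from separate animals, so a p-value speaks only of how these libraries vary, and that variation may be technical. Library totals ran from 21048103 to 43946503 counts, and the members' counts from 48 to 21652 per library. DKO replicate 3 stood apart from the other 2 libraries of its label, with a chi-square per degree of freedom over all genes of 45.6 and 56.3 against them, while those 2 differed by 10.4. Levels are given as CPM, counts scaled to a common library size with TMM factors, and differences on the log2 scale. In bulk RNA, fewer cells of a type and less RNA per cell cannot be told apart.

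Promoter letters show what some of these genes share. RefSeq promoter windows of build GRCm38.p6, from 250 bases before to 50 after a transcription start, were found for 28 of the 39 members (35 windows). The ISRE core, searched as GAAA, any 2 bases and GAAA, and on the other strand as TTTC, any 2 bases and TTTC, was in the windows of 13 of these 28 genes (46.4%) and in 3.99% of all 27025 genes of the promoter table. Counted by window it was in 14 of 35 (40.0%) and in 3.44% of all 32851. The 13 genes were Bst2, Ddx58, Eif2ak2, Ifih1, Ifit1, Ifit3, Isg15, Oas1a, Oas3, Phf11b, Rsad2, Trim21 and Trim30a. The gamma-activated site TTCNNNGAA, which reads the same on both strands, was in 7 of the 35 windows (20.0%) and in 8.30% of all windows. The 180 bases before the start are printed 5′ to 3′ for 6 members with an ISRE core, in capitals, because these show how the core is placed and repeated. Their log2 fold changes in DKO against WT ran from 0.86 for Bst2 to 2.15 for Ifit1, so the smallest changes, such as 0.30 for Trim21, are not among them. The last line is Cmpk2, the neighbour of Rsad2, whose window held no match.
Isg15 (chr4:156200819-156200998, minus strand): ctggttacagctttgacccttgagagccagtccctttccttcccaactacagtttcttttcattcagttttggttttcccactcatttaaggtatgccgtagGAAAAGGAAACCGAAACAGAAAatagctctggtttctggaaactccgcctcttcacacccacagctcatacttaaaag
Ifit1 (chr19:34640709-34640888, plus strand): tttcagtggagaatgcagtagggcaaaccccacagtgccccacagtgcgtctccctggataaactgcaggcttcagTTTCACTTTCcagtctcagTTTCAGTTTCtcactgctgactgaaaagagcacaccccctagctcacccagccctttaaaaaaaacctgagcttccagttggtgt
Ifit3 (chr19:34583349-34583528, plus strand): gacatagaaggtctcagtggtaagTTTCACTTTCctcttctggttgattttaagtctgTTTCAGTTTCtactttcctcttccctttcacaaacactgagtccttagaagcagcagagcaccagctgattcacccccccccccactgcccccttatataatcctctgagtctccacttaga
Rsad2 (chr12:26456453-26456632, minus strand): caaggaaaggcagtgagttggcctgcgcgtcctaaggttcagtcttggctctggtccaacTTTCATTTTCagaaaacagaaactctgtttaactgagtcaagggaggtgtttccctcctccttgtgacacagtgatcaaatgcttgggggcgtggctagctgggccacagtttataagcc
Bst2 (chr8:71537473-71537652, minus strand): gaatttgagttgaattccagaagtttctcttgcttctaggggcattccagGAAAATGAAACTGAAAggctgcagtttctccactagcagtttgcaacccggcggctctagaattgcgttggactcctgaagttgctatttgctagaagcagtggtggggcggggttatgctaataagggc
Oas1a (chr5:120907526-120907705, minus strand): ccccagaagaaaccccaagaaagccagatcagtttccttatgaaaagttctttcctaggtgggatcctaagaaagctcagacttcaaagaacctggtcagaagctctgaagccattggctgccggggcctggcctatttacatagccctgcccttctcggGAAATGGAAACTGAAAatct
Cmpk2 (chr12:26469035-26469214, plus strand): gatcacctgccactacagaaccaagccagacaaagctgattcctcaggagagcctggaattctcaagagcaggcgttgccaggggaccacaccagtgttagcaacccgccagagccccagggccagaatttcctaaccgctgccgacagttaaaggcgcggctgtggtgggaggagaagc

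Isg15 held 3 matches that overlap each other, the first starting 78 bases before the start, and Bst2 and Oas1a each held 2 that overlap. Ifit1 and Ifit3 each carried 2 separate cores, read on the other strand, with the same letters in the same order, TTTCACTTTC and TTTCAGTTTC. In Ddx58, Eif2ak2, Ifih1, Trim21 and in 1 of 2 windows of Trim30a the matches lay after the start. A match is a stretch of letters and not a measured binding site, and no match says only that these letters were not in the window. The 13 members with a core had log2 fold changes in DKO against WT from 0.30 to 2.15 (median 1.00), and the 15 matched members without one from 0.38 to 2.07 (median 0.92). Both sets thus ran from small to large changes. Usp18, Dhx58, Zbp1, Oas2, Mx1, Parp9, Parp14, Ifi204, Rtp4, Ifi27l2a and Tor3a had no entry in the promoter table.

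In the libraries labelled DKO every one of the 39 members was higher than in WT. Each passed an adjusted p of 0.05, and for each all 3 libraries labelled DKO lay above all 3 WT libraries. Over all 12671 genes tested, 19.1% were called higher in this comparison and 23.7% had all 3 libraries above all 3. Both shares were larger for the members, but the members were listed with earlier results of these data known. The difference from the background is therefore only a description. Scaled by total counts, 1773 genes were called higher and 2873 lower in place of 2423 and 2062, and all 39 members were still called higher. Without DKO replicate 3 all 39 were called too. The median log2 fold change of the members was 1.00, or 2.00-fold, beside 0.00 over all genes. Single members ran from 0.30 for Trim21 to 2.63 for Zbp1. The rise was at least 2-fold for 20 members and at least 4-fold for 5, which were Zbp1, Ifit1, Isg15, Ifit3 and Ifit2. Summed over the 39 genes, the level was 4653, 4834 and 5012 CPM in the libraries labelled DKO and 2411, 2311 and 2716 CPM in WT.

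**Figure D1:**
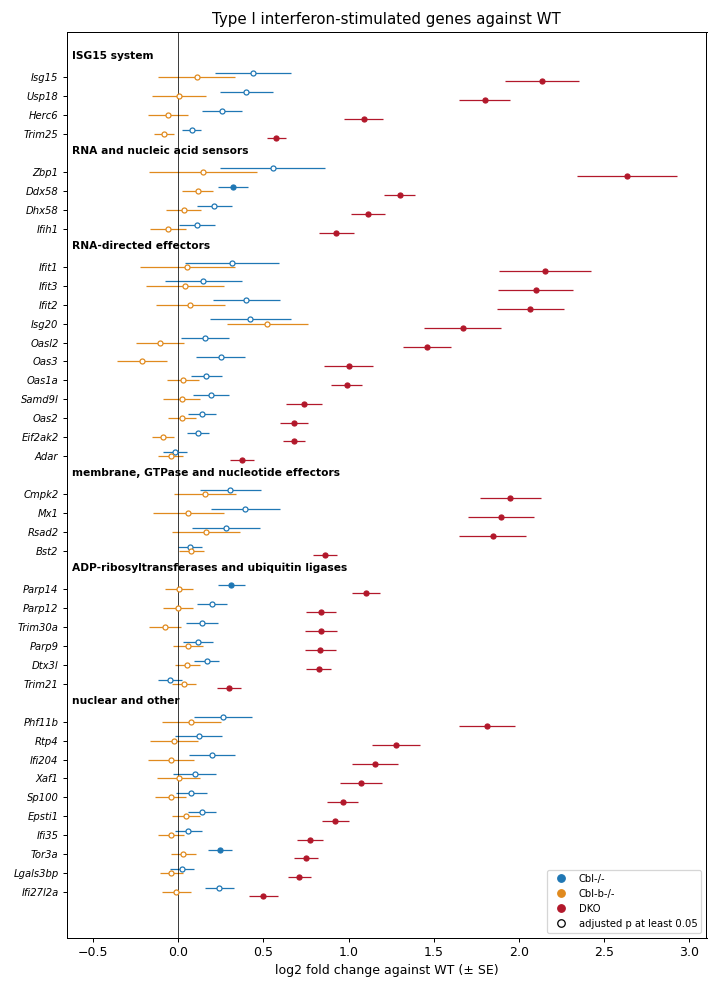
Log2 fold change against WT (horizontal axis, points with standard errors) of each of the 39 members (vertical axis, grouped by role), for Cbl-/- and for the libraries labelled Cbl-b-/- and DKO. All 39 points for DKO lie above 0, from 0.30 to 2.63, while those for Cbl-b-/- scatter around 0 with a median of 0.02.

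Markers of other cells moved with the same groups. Of 7 classical monocyte markers, 6 were higher in the libraries labelled DKO than in WT, and their summed level was 158 to 213 CPM in DKO, 56.5 to 61.9 in WT, 82.7 to 93.3 in Cbl-/- and 77.8 to 86.7 in Cbl-b-/-. Of 10 neutrophil markers 5 had a row, all 4 tested were higher in DKO, and the sum was 64.2 to 87.0 CPM in DKO, 2.80 to 3.97 in WT, 4.40 to 5.79 in Cbl-/- and 3.05 to 4.27 in Cbl-b-/-. All 3 stromal markers tested were also higher in DKO (sum 11.1 to 14.5 CPM, WT 2.26 to 4.79). Of 10 macrophage markers, 6 were lower and 1 higher in DKO, with sums of 17062 to 20285 CPM in DKO and 20299.6 to 22495 CPM in WT. This list had the largest sum in every library, but Lyz2 made up most of it, with means of 15674 CPM in WT and 14078 in DKO. From WT to DKO the mean went from 55.8 to 15.2 CPM for Mrc1, 147 to 47.4 for C1qa and 447 to 207 for C1qb. It went from 28.8 to 12.5 for Mertk and, the other way, from 74.9 to 132 for Fcgr1. Siglech, which defines plasmacytoid dendritic cells, a major source of interferon, was too low to test. It had 4, 0 and 3 counts in WT, 1, 1 and 0 in Cbl-/-, 0, 0 and 0 in Cbl-b-/- and 4, 12 and 7 in DKO. Of that list 2 were tested and 1, Tcf4, was lower in DKO. Tcf4 made up nearly all of the list's sum (65.0 to 74.1 CPM, WT 92.8 to 99.8). Cox6a2 was not called, with means of 0.399 CPM in DKO and 0.215 in WT. Pf4, the 1 erythroid or megakaryocyte marker tested, was lower in DKO (28.7 to 32.8 CPM, WT 62.1 to 74.3). Of the conventional dendritic cell markers 1 of 2 tested was higher in DKO (sum 2.74 to 2.98 CPM, WT 0.929 to 1.18), B cell markers summed to at most 1.01 CPM in any library, and the single T and NK cell marker with a row to at most 0.248. Markers without a count in WT replicate 1 have no row, so the sums leave them out in every library. The part of other cells in the members' change was not tested.

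The ISG15 system attaches the ubiquitin-like protein ISG15 to target proteins and removes it. All 4 of its members rose in the libraries labelled DKO, with a median log2 fold change of 1.44. Isg15 (ENSMUSG00000035692, chr4:156199424-156200818, minus strand), which encodes the modifier itself, measured 7.57, 8.16 and 12.7 CPM in WT, 9.73, 11.4 and 16.6 in Cbl-/-, 10.5, 11.9 and 7.49 in the libraries labelled Cbl-b-/- and 40.3, 42.5 and 40.6 in those labelled DKO. The DKO libraries lay within a narrow band and far above the rest, while the other 3 genotypes overlapped. Its log2 fold change in DKO against WT was 2.14 (adjusted p = 6.6e-06, SE 0.22), a 4.40-fold rise. Usp18 (ENSMUSG00000030107, chr6:121245906-121270917, plus strand), the protease that removes ISG15 and also restrains signalling at IFNAR2, measured 11.5, 11.2 and 16.6 CPM in WT, 15.1, 14.9 and 21.2 in Cbl-/-, 13.7, 13.4 and 11.9 in the libraries labelled Cbl-b-/- and 41.1, 45.3 and 49.2 in those labelled DKO. Its rise was of similar size, 1.80 (adjusted p = 3.0e-07, SE 0.15), and no DKO library came near the highest of the others. Herc6 (ENSMUSG00000029798, chr6:57581000-57664632, plus strand), the main ISG15 ligase of the mouse, measured 19.7, 19.7 and 23.2 CPM in WT, 23.03, 23.3 and 28.2 in Cbl-/-, 20.2, 19.3 and 20.4 in the libraries labelled Cbl-b-/- and 40.2, 38.8 and 53.5 in those labelled DKO. DKO replicate 3 stood above the other 2 of its genotype, and the log2 fold change was 1.09 (adjusted p = 1.8e-06, SE 0.11). Trim25 (ENSMUSG00000000275, chr11:88999376-89020293, plus strand), a ubiquitin and ISG15 ligase that activates RIG-I, was the most abundant of the 4 per length of transcript and changed the least. It measured 220.0, 211 and 239 CPM in WT, 233, 235 and 240.1 in Cbl-/-, 223, 208 and 202 in the libraries labelled Cbl-b-/- and 331, 325 and 342 in those labelled DKO, a log2 fold change of 0.58 (adjusted p = 8.5e-07, SE 0.06) with no overlap between DKO and the rest. Reads of Usp18 and Herc6 may include reads of Gm44148 and Gm45193, annotated genes that overlap them.

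The sensors recognise foreign nucleic acid in the cytoplasm, and all 4 rose in DKO with a median of 1.21. Zbp1 (ENSMUSG00000027514, chr2:173206612-173218923, minus strand), a sensor of Z-form nucleic acid that can start necroptosis, had the largest change of all 39 members. Its levels were low, 5.23, 4.80 and 7.72 CPM in WT, 5.89, 9.998 and 9.89 in Cbl-/-, 6.998, 8.74 and 3.12 in the libraries labelled Cbl-b-/- and 33.7, 39.4 and 35.6 in those labelled DKO. Replicate 3 labelled Cbl-b-/- lay well below the other 2, whereas every DKO library exceeded every other library more than 3-fold. The log2 fold change was 2.63 (adjusted p = 3.5e-05, SE 0.29). Ddx58 (ENSMUSG00000040296, chr4:40203773-40239828, minus strand), which encodes the RNA helicase RIG-I, measured 62.5, 58.6 and 67.1 CPM in WT, 69.1, 74.9 and 90.9 in Cbl-/-, 67.97, 66.4 and 69.1 in the libraries labelled Cbl-b-/- and 141, 152 and 169.8 in those labelled DKO. Here the Cbl-/- libraries also lay above all WT libraries, and DKO above both. The log2 fold change in DKO against WT was 1.30 (adjusted p = 1.6e-08, SE 0.09). Ifih1 (ENSMUSG00000026896, chr2:62595798-62646255, minus strand), the gene of the sensor of long double-stranded RNA MDA5, measured 34.8, 32.9 and 36.4 CPM in WT, 35.00, 36.4 and 40.7 in Cbl-/-, 32.6, 35.2 and 31.9 in the libraries labelled Cbl-b-/- and 59.4, 58.3 and 79.9 in those labelled DKO. WT and both single knockouts overlapped and DKO stood apart, at 0.93 (adjusted p = 2.8e-06, SE 0.10). Dhx58 (ENSMUSG00000017830, chr11:100694884-100704271, minus strand), which encodes LGP2, a helicase that modulates both of these sensors, measured 26.5, 26.1 and 29.8 CPM in WT, 27.8, 30.2 and 37.2 in Cbl-/-, 29.4, 28.1 and 26.6 in the libraries labelled Cbl-b-/- and 59.8, 65.05 and 53.2 in those labelled DKO. Its log2 fold change was 1.11 (adjusted p = 3.1e-07, SE 0.10), again with DKO alone outside the range of the others.

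**Figure D2:**
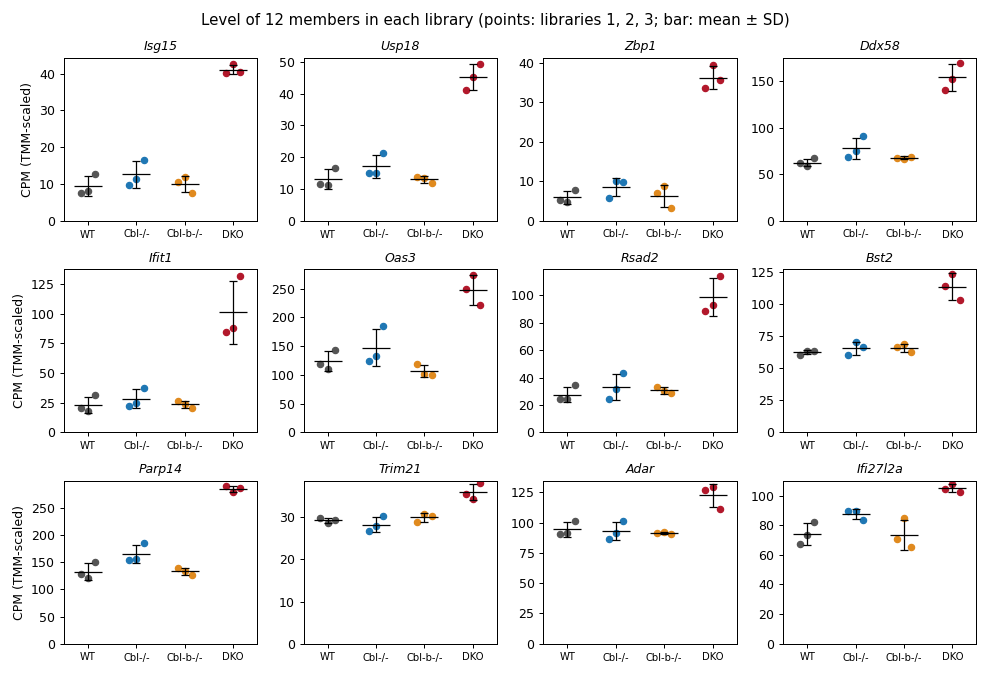
Level in CPM (vertical axis, from 0) of 12 members in each library (points), by genotype as labelled, with the mean and SD of the 3 libraries. The points labelled DKO lie above every WT point in all 12 panels, closely for Trim21 and Adar and widely for Isg15, Zbp1 and Ifit1.

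Effectors that act on RNA form the largest role group, and its 11 members all rose in DKO, with a median of 1.00 and the widest range, 0.38 to 2.15. The Ifit1 protein binds RNA whose cap lacks host methylation and blocks its translation. Ifit1 (ENSMUSG00000034459, chr19:34640871-34650009, plus strand) measured 20.2, 17.7 and 31.2 CPM in WT, 22.2, 25.1 and 37.6 in Cbl-/-, 26.1, 24.2 and 20.5 in the libraries labelled Cbl-b-/- and 84.5, 87.7 and 132 in those labelled DKO. DKO replicate 3 was the highest by a wide margin, and all 3 DKO libraries exceeded all others. The log2 fold change was 2.15 (adjusted p = 1.8e-04, SE 0.27), and its neighbours on chromosome 19, Ifit2 and Ifit3, had 2.07 and 2.10.

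The Oas genes encode enzymes that make oligoadenylates on binding double-stranded RNA, which switch on the nuclease RNase L. Oas3 (ENSMUSG00000032661, chr5:120753098-120777661, minus strand) measured 118, 110.0 and 144 CPM in WT, 125, 133 and 184 in Cbl-/-, 119, 102 and 99.8 in the libraries labelled Cbl-b-/- and 249.8, 274 and 221 in those labelled DKO. The 3 DKO libraries were the highest, at 1.00 (adjusted p = 1.4e-04, SE 0.14), and the libraries labelled Cbl-b-/- lay below all of Cbl-/-. Oasl2 (ENSMUSG00000029561, chr5:114896936-114912234, plus strand), a relative of this family, measured 76.4, 69.4 and 95.9 CPM in WT, 72.5, 84.3 and 112 in Cbl-/-, 75.4, 74.9 and 74.1 in the libraries labelled Cbl-b-/- and 205, 228 and 231 in those labelled DKO. It rose most among the 4 Oas-type genes, by a log2 fold change of 1.46 (adjusted p = 3.7e-06, SE 0.14), beside 0.99 for Oas1a and 0.68 for Oas2. Oas1a, Ifit1, Ifit3, Trim30a, Ifi204, Ifi27l2a and Phf11b belong to families with closely similar copies, and their counts depend on how shared reads were assigned, a step that the sources used here do not give.

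Samd9l (ENSMUSG00000047735, chr6:3372257-3399572, minus strand), a restriction factor that represses translation, measured 121, 114 and 131 CPM in WT, 136, 142 and 141 in Cbl-/-, 124, 128 and 119 in the libraries labelled Cbl-b-/- and 185, 173 and 253 in those labelled DKO. DKO replicate 3 again stood above the other 2, and the log2 fold change was 0.74 (adjusted p = 6.1e-05, SE 0.11). Eif2ak2 (ENSMUSG00000024079, chr17:78852564-78882573, minus strand), the gene of the kinase PKR that shuts down translation on double-stranded RNA, measured 65.6, 65.5 and 71.7 CPM in WT, 75.9, 69.00 and 74.9 in Cbl-/-, 62.6, 64.1 and 63.9 in the libraries labelled Cbl-b-/- and 109, 99.7 and 115 in those labelled DKO. The libraries labelled Cbl-b-/- lay just below the WT range and DKO clearly above it, at 0.68 (adjusted p = 5.3e-07, SE 0.06). Adar (ENSMUSG00000027951, chr3:89715022-89753446, plus strand) encodes an enzyme that edits adenosine in double-stranded RNA and has an interferon-induced form. It measured 90.4, 91.5 and 102 CPM in WT, 86.8, 91.4 and 102 in Cbl-/-, 91.6, 92.7 and 90.5 in the libraries labelled Cbl-b-/- and 127, 129 and 112 in those labelled DKO. This was the second smallest change of all members, 0.38 (adjusted p = 5.8e-04, SE 0.07), and DKO replicate 3 exceeded the highest WT library only narrowly. Counts over the whole gene cannot separate the induced form of Adar from the constitutive one, and the gene overlaps Chrnb2 on the other strand. Isg20, which encodes an exonuclease, had the lowest level of all members per kilobase of transcript in WT and a log2 fold change of 1.67.

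The 4 effectors at membranes, in the GTPase class and in nucleotide metabolism had the highest median of any role group in DKO, 1.87. Rsad2 (ENSMUSG00000020641, chr12:26442746-26456452, minus strand), which encodes viperin, an enzyme that makes a chain-terminating nucleotide, measured 24.2, 24.4 and 34.2 CPM in WT, 24.6, 31.7 and 43.4 in Cbl-/-, 33.4, 29.9 and 28.6 in the libraries labelled Cbl-b-/- and 88.6, 92.7 and 114 in those labelled DKO. Cmpk2 (ENSMUSG00000020638, chr12:26469204-26479837, plus strand), a mitochondrial nucleotide kinase gene that lies 12751 bases from Rsad2 on the opposite strand, measured 18.3, 15.9 and 24.9 CPM in WT, 18.8, 22.2 and 31.2 in Cbl-/-, 23.1, 19.8 and 22.5 in the libraries labelled Cbl-b-/- and 69.9, 75.1 and 81.4 in those labelled DKO. Both showed the same picture of 3 overlapping genotypes with DKO far above, at 1.85 (adjusted p = 2.2e-05, SE 0.20) for Rsad2 and 1.95 (adjusted p = 2.3e-06, SE 0.18) for Cmpk2. Bst2 (ENSMUSG00000046718, chr8:71534255-71537456, minus strand), the gene of tetherin, which holds budding virus particles at the cell surface, was already abundant in WT. It measured 60.6, 63.7 and 63.4 CPM in WT, 60.2, 70.2 and 66.7 in Cbl-/-, 66.2, 68.97 and 62.6 in the libraries labelled Cbl-b-/- and 114, 124 and 103 in those labelled DKO, a smaller rise of 0.86 (adjusted p = 1.4e-07, SE 0.07). Mx1, the gene of a GTPase that blocks viral ribonucleoproteins, had a log2 fold change of 1.90 from levels of 4.18 to 4.65 CPM in WT. The labels name no strain, and several inbred mouse strains are known to carry a defective Mx1 allele.

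The 6 genes of ADP-ribosyltransferases and ubiquitin ligases had a median of 0.84 in DKO, the lowest of the role groups. Parp14 (ENSMUSG00000034422, chr16:35832874-35871544, minus strand), a mono-ADP-ribosyltransferase gene, measured 128, 121 and 150.5 CPM in WT, 154, 156 and 185 in Cbl-/-, 139, 134 and 127 in the libraries labelled Cbl-b-/- and 289, 278 and 287 in those labelled DKO. All 3 Cbl-/- libraries were above all 3 WT libraries and DKO was above both, with a log2 fold change of 1.10 (adjusted p = 3.2e-08, SE 0.08) against WT. Parp12 (ENSMUSG00000038507, chr6:39086410-39118349, minus strand), of the same enzyme family, measured 64.2, 67.6 and 79.2 CPM in WT, 73.9, 76.7 and 90.7 in Cbl-/-, 70.1, 64.98 and 76.2 in the libraries labelled Cbl-b-/- and 119.9, 131 and 127 in those labelled DKO. Trim30a (ENSMUSG00000030921, chr7:104409025-104465193, minus strand), a mouse ligase gene known to dampen inflammatory signalling, measured 113, 110.0 and 126 CPM in WT, 112, 125 and 147 in Cbl-/-, 112, 115 and 104 in the libraries labelled Cbl-b-/- and 194, 195 and 235 in those labelled DKO. Both had the same log2 fold change to 2 decimals, 0.84 (adjusted p = 1.5e-06, SE 0.09) and 0.84 (adjusted p = 3.8e-06, SE 0.09). Trim21 (ENSMUSG00000030966, chr7:102557921-102565486, minus strand), the gene of a cytosolic antibody receptor and ubiquitin ligase, had the smallest change of all 39. It measured 29.7, 28.5 and 29.3 CPM in WT, 26.7, 27.8 and 30.2 in Cbl-/-, 28.7, 30.8 and 30.1 in the libraries labelled Cbl-b-/- and 35.4, 34.2 and 37.97 in those labelled DKO, and DKO lay above the others by a few CPM, at 0.30 (adjusted p = 0.0027, SE 0.07). Parp9 and Dtx3l, whose products act as a pair, rose by 0.84 and 0.83. They sit on opposite strands of chromosome 16 and overlap by 682 bases, so some of their reads may be shared.

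Among the 10 nuclear and other interferon-induced genes the median in DKO was 0.94. Lgals3bp (ENSMUSG00000033880, chr11:118392751-118402092, minus strand), which encodes a secreted galectin-binding protein, measured 371, 347 and 367 CPM in WT, 355, 361 and 386 in Cbl-/-, 356, 349 and 350.0 in the libraries labelled Cbl-b-/- and 596, 657 and 525 in those labelled DKO. The 9 libraries outside DKO lay in a narrow band, and the log2 fold change was 0.71 (adjusted p = 6.2e-07, SE 0.07). Sp100 (ENSMUSG00000026222, chr1:85649988-85709998, plus strand), a component of nuclear bodies that silence viral genomes, measured 92.2, 85.4 and 98.4 CPM in WT, 83.4, 96.7 and 111 in Cbl-/-, 92.8, 88.7 and 85.9 in the libraries labelled Cbl-b-/- and 164, 175 and 199 in those labelled DKO. It rose by a log2 fold change of 0.96 (adjusted p = 5.8e-07, SE 0.09), with no overlap. Tor3a (ENSMUSG00000060519, chr1:156653617-156674356, minus strand), a gene of the torsin ATPase family, measured 72.4, 68.7 and 81.9 CPM in WT, 85.97, 86.6 and 91.4 in Cbl-/-, 72.1, 82.7 and 72.6 in the libraries labelled Cbl-b-/- and 123, 132 and 120.3 in those labelled DKO. Cbl-/- was above WT in every library, and DKO above both, at 0.75 (adjusted p = 6.3e-07, SE 0.07).

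Ifi35 (ENSMUSG00000010358, chr11:101448407-101458698, plus strand), an interferon-induced leucine zipper gene, measured 33.4, 31.5 and 35.6 CPM in WT, 31.3, 35.2 and 38.1 in Cbl-/-, 33.4, 32.5 and 31.7 in the libraries labelled Cbl-b-/- and 57.2, 60.6 and 53.9 in those labelled DKO. Its log2 fold change was 0.77 (adjusted p = 7.9e-07, SE 0.08). Ifi27l2a (ENSMUSG00000079017, chr12:103442167-103443680, minus strand), a small interferon-induced gene, had the highest level per kilobase of all members in WT. It measured 67.3, 73.3 and 82.1 CPM in WT, 89.7, 89.7 and 83.5 in Cbl-/-, 70.4, 84.6 and 65.5 in the libraries labelled Cbl-b-/- and 105, 108 and 102 in those labelled DKO. The Cbl-/- libraries lay above WT here, and the rise in DKO was the third smallest, 0.50 (adjusted p = 2.2e-04, SE 0.08). The other 5 genes, Phf11b, Rtp4, Ifi204, Xaf1 and Epsti1, rose by 0.92 to 1.81, Phf11b the most.

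Levels can be compared between genes only per length. As CPM per kilobase of exonic sequence in WT, the highest members were Ifi27l2a at 160.3, Lgals3bp at 127, Bst2 at 69.3, Trim25 at 38.8 and Oas1a at 32.7. Isg20 at 0.999, Mx1 at 1.17 and Zbp1 at 1.68 were the lowest. In DKO the same scale gave Ifi27l2a 227, Lgals3bp 208, Isg15 54.4 and Zbp1 10.3. Members with a low level per kilobase in WT tended to have the larger log2 fold changes in DKO, with Pearson's r of -0.57 and Spearman's rho of -0.56 across the 39 genes. This is a description: the genes share all libraries, and the WT level enters both measures.

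In Cbl-/- the members shifted little. Of 39, 3 passed the threshold, all higher than in WT, while 5.68% of all genes were called higher. These were Ddx58 at 0.32 (adjusted p = 0.031, SE 0.09), Parp14 at 0.31 (adjusted p = 0.020, SE 0.08) and Tor3a at 0.25 (adjusted p = 0.040, SE 0.07). The median log2 fold change was 0.20 beside -0.01 over all genes, with 37 positive values and a highest value of 0.56 for Zbp1. That median was 0.07 without Cbl-/- replicate 3 and 0.27 without WT replicate 3. For 5 members, Ddx58, Samd9l, Parp14, Ifi27l2a and Tor3a, all 3 Cbl-/- libraries lay above all 3 WT libraries, a share below the 19.0% found over all genes tested. None of the 39 lay wholly below. The count of 3 depended on single libraries. No member was called without WT replicate 1, WT replicate 2 or Cbl-/- replicate 3, 1 was without Cbl-/- replicate 2, and 5 were without WT replicate 3 or DKO replicate 3. The calls over all genes moved as well. In the same order of libraries left out, 415, 456, 453, 479, 567 and 1215 genes were called higher, in place of 720. In a fit of only WT and Cbl-/- libraries 1484 of all genes were called higher. The count of members was again 3, but Ddx58 and Parp14 lost their calls while Samd9l and Ifi27l2a gained one.

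In the libraries labelled Cbl-b-/- none of the 39 members passed the threshold, where 0.395% of all genes were called higher and 0.0947% lower. At an unadjusted p under 0.05 edgeR gave 1 member, Isg20, with a log2 fold change of 0.52 (adjusted p = 0.64, SE 0.24). DESeq2 and limma voom also called 0. The median was 0.02, with 25 positive values, and its sign was not stable. It was -0.02 without WT replicate 1, -0.03 without WT replicate 2, -0.01 without Cbl-b-/- replicate 2 and 0.09 without WT replicate 3. The single member without overlap was Eif2ak2, lower in all 3 libraries by a log2 fold change of -0.09 (adjusted p = 0.86, SE 0.06), beside 7.27% of all genes that were lower without overlap. Both single-knockout comparisons and DKO against WT use the same 3 WT libraries. Side by side, the log2 fold changes against WT in Cbl-/-, Cbl-b-/- and DKO were 0.44, 0.11 and 2.14 for Isg15. For Zbp1 they were 0.56, 0.14 and 2.63. For Oas3 they were 0.25, -0.21 and 1.00, and for Lgals3bp 0.02, -0.04 and 0.71.

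Set directly against each other, the libraries labelled Cbl-b-/- had lower levels than Cbl-/- for most members, by a median log2 fold change of -0.18, which was -0.05 without Cbl-/- replicate 3 and -0.25 without Cbl-/- replicate 1. Parp14 alone passed the threshold, at -0.31 (adjusted p = 0.030, SE 0.08), while 4.12% of all genes were called lower. In 9 members all 3 libraries labelled Cbl-b-/- lay below all 3 of Cbl-/-, beside 16.1% of all genes. They were Usp18, Herc6, Trim25, Eif2ak2, Oas3, Samd9l, Ifi204, Parp14 and Tor3a. The Parp14 call was lost without Cbl-/- replicate 3, Cbl-b-/- replicate 2 or Cbl-b-/- replicate 3. The number of members called lower was 0 without either of Cbl-/- replicate 3 and Cbl-b-/- replicate 3, 2 without WT replicate 3, Cbl-/- replicate 1, Cbl-b-/- replicate 2 or DKO replicate 2, and 6 without DKO replicate 3. Over all genes the number called lower moved too, from 522 with all libraries. In the same order of libraries left out it was 317, 371, 513, 307, 378, 613 and 1060.

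Against each single knockout, DKO was higher for all 39 members. In DKO against Cbl-/-, where 16.0% of all genes were called higher and 22.5% had all 3 libraries above all 3, the median log2 fold change was 0.82, from 0.26 for Ifi27l2a to 2.08 for Zbp1. In DKO against the libraries labelled Cbl-b-/-, with 17.7% and 20.9% of all genes, it was 1.07, from 0.26 for Trim21 to 2.49 for Zbp1. No member overlapped between the groups in either comparison. Scaled by total counts, the split of all genes called went from 2027 higher and 1720 lower to 1362 and 2747 in the first, and from 2237 and 1974 to 1543 and 3207 in the second, with 38 members higher in each. Isg15 rose by 1.70 (adjusted p = 6.4e-05, SE 0.21) over Cbl-/- and by 2.03 (adjusted p = 1.3e-05, SE 0.22) over Cbl-b-/-. The smallest difference, that of Ifi27l2a over Cbl-/-, had an adjusted p of 0.029. It passed the threshold under 13 of 21 alternatives and was lost on leaving out any 1 of the Cbl-/- or DKO replicates.

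Whether DKO differed from the sum of both single effects was tested with a contrast on the log2 scale, DKO plus WT, minus Cbl-/- and minus Cbl-b-/-. For 37 of 39 members DKO lay above the sum at an adjusted p under 0.05, and for none below, while 8.39% of all genes tested were called above and 7.28% below. The median departure was 0.86 on the log2 scale, beside 0.00 over all genes. Scaled by total counts, 711 genes were called above the sum and 1719 below in place of 1063 and 922, the median of all genes moved to -0.11, and 36 members were called above with a median of 0.75. The smallest p among the members belonged to Lgals3bp, with a departure of 0.73 (adjusted p = 7.8e-05, SE 0.10). Sp100 followed at 0.93 (adjusted p = 1.3e-04, SE 0.13), Trim25 at 0.58 (adjusted p = 1.3e-04, SE 0.08) and Eif2ak2 at 0.65 (adjusted p = 1.3e-04, SE 0.09). Bst2 had 0.71 (adjusted p = 1.7e-04, SE 0.10) and Ifi35 0.75 (adjusted p = 1.8e-04, SE 0.11). All 6 are genes whose single effects were within 0.12 of 0.

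The largest departures belonged to members with large changes in DKO, Zbp1 at 1.93 (adjusted p = 0.010, SE 0.42), Ifit3 at 1.91 (adjusted p = 0.0019, SE 0.31), Ifit1 at 1.78 (adjusted p = 0.012, SE 0.39) and Isg15 at 1.59 (adjusted p = 0.0038, SE 0.31). The 2 members that did not pass were Isg20, at 0.72 (adjusted p = 0.16, SE 0.33), and Ifi27l2a, at 0.27 (adjusted p = 0.15, SE 0.12). Their values were positive, and a p that misses the threshold does not show that the effects add up. Isg20 had the largest sum of single effects, 0.95, beside 1.67 in DKO. The calls of Trim21 and Samd9l were the least stable. Trim21 passed under 9 of 20 alternatives, with adjusted p from 0.024 to 0.17, and lost its call without WT replicate 1, 2 or 3, Cbl-/- replicate 1 or 2, Cbl-b-/- replicate 1 or 3, or DKO replicate 1. Samd9l passed under 13 of 20, with adjusted p from 0.0024 to 0.11, and lost its call without WT replicate 1 or 3, any Cbl-/- replicate, or Cbl-b-/- replicate 3.

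**Figure D3:**
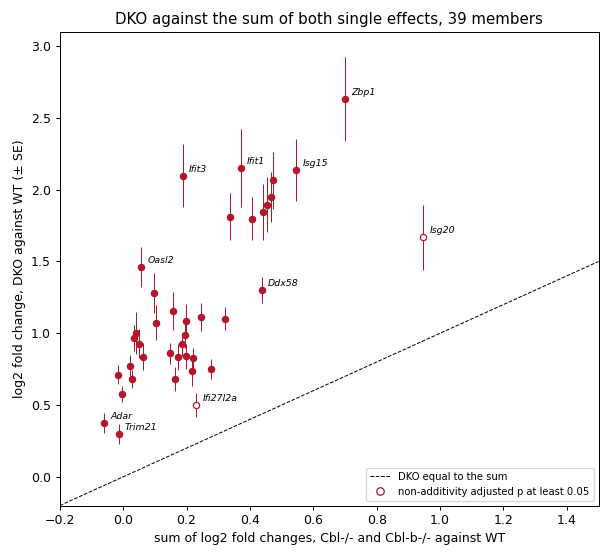
Log2 fold change in DKO against WT (vertical axis, with standard errors) of each member against the sum of its log2 fold changes in Cbl-/- and Cbl-b-/- (horizontal axis), with a dashed line where both are equal. All 39 points lie above the line, and the 2 open circles, Isg20 and Ifi27l2a, are those whose departure did not pass an adjusted p of 0.05.

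In WT and in Cbl-/- most members moved together from library to library, and less so in the libraries labelled Cbl-b-/- and DKO. In WT, replicate 3 had the highest level for 35 of 39 members, while it was the highest of its genotype for 37.3% of all genes tested. The members' median deviation from the WT mean was 0.14 on the log2 scale in replicate 3, -0.10 in replicate 2, the lowest for 29 members, and -0.05 in replicate 1. In Cbl-/-, replicate 3 was the highest for 34 members (34.2% of all genes) with a median deviation of 0.20, and replicate 1 the lowest for 35. These deviations are of the size of the median difference of 0.20 between Cbl-/- and WT. Without both of these replicates the median difference between Cbl-/- and WT was 0.14 and 1 member was called, where 358 of all genes were called higher in place of 720. In the libraries labelled Cbl-b-/-, replicate 3 was the lowest for 27 members, while replicates 1 and 2 were the highest for 17 and 18. In those labelled DKO, replicate 3 was the highest for 24 (39.5% of all genes) but also the lowest for 10. The share of all genes for which a library was the lowest was not computed. The summed level reached 3057 CPM in Cbl-/- replicate 3, still below the 4653 CPM of the lowest DKO library.

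**Figure D4:**
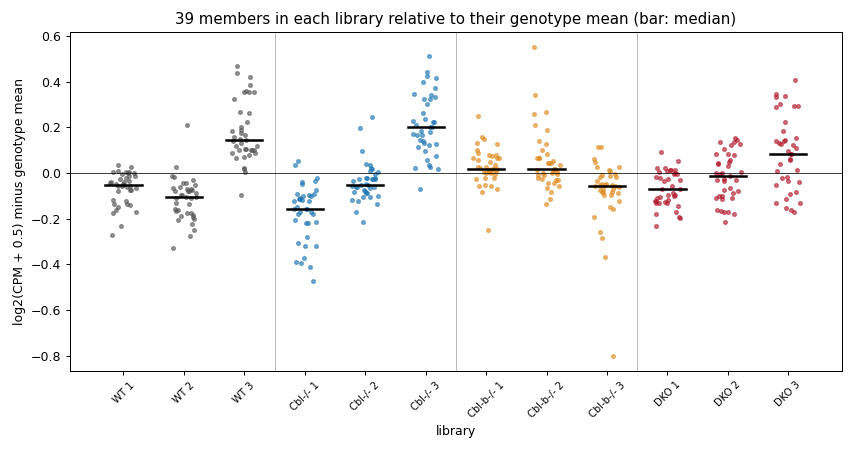
Deviation of each member's log2 level from the mean of its genotype (vertical axis) in each of the 12 libraries (horizontal axis). In WT replicate 3 and Cbl-/- replicate 3 most points lie above 0, with medians of 0.14 and 0.20.

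The members' upstream pathway was followed with 44 other genes listed by role, of which 38 had a row and 37 were tested. In DKO against WT, 14 were higher, 7 lower and 16 did not pass, while over all genes tested 19.1% were called higher and 16.3% lower, so the count of lower genes was near the background. In Cbl-/- 4 were higher and 2 lower (5.68% and 4.19% of all genes), and in the libraries labelled Cbl-b-/- 2 were higher and none lower (0.395% and 0.0947%). Of the interferon genes themselves only Ifnb1, the gene of interferon beta, had a row, and it was too low to test. A gene without a count in WT replicate 1 has no row, so a missing row does not show absence from the other libraries. It had 1, 0 and 0 counts in WT, 1, 0 and 0 in Cbl-/-, 0, 1 and 0 in Cbl-b-/- and 2, 3 and 3 in DKO, so each library labelled DKO lay above each other library. No library went past 3 counts, the number that a count of 0 still allows, so no fold change is given.

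Of the 4 receptor and kinase genes, Ifnar2, a chain of the interferon receptor, was lower in DKO, at -0.19 (adjusted p = 0.012, SE 0.05), and in Cbl-/-, at -0.20 (adjusted p = 0.028, SE 0.05). Its levels were 118, 117 and 116 CPM in WT, 103, 102 and 101 in Cbl-/-, 113, 119 and 110.4 in the libraries labelled Cbl-b-/- and 98.4, 109.6 and 100.1 in those labelled DKO, so the difference was small beside the total. Ifnar1, Jak1 and Tyk2 did not pass the threshold in DKO, where Tyk2 had the highest log2 fold change of the 3, 0.09.

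Of 7 transcription factor genes 4 were higher and 2 lower in DKO, beside 19.1% and 16.3% of all genes. Stat2, which encodes a factor activated at the interferon receptor, measured 77.2, 73.9 and 86.7 CPM in WT, 71.6, 80.4 and 85.8 in Cbl-/-, 75.1, 75.8 and 72.95 in the libraries labelled Cbl-b-/- and 141, 136 and 139 in those labelled DKO. The DKO libraries stood clear of all others, and the log2 fold change was 0.81 (adjusted p = 1.8e-07, SE 0.07). Irf7, which encodes a factor that amplifies interferon gene induction and is itself induced by interferon, measured 28.5, 26.5 and 39.9 CPM in WT, 29.8, 37.2 and 49.8 in Cbl-/-, 33.7, 29.1 and 32.8 in the libraries labelled Cbl-b-/- and 116, 129 and 106 in those labelled DKO. It rose the most of this role, by 1.90 (adjusted p = 8.7e-06, SE 0.18), and WT replicate 3 and Cbl-/- replicate 3 were the highest of their genotypes here too. Irf9, the gene of the DNA-binding partner of STAT2, rose by 0.44 (adjusted p = 2.4e-04, SE 0.07), and Irf1, a factor induced by interferon gamma and other signals, by 0.45 (adjusted p = 5.8e-05, SE 0.07). In Cbl-/- the values of Stat2, Irf7, Irf9 and Irf1 were 0.00, 0.31, -0.06 and 0.13, and in Cbl-b-/- -0.09, 0.02, -0.01 and 0.13, none past the threshold. DKO lay above the sum of the single effects for Stat2 at 0.89 (adjusted p = 1.2e-05, SE 0.10), Irf7 at 1.56 (adjusted p = 0.0017, SE 0.26) and Irf9 at 0.51 (adjusted p = 0.0034, SE 0.11), but not past the threshold for Irf1 at 0.20 (adjusted p = 0.18, SE 0.09).

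Of 13 genes that lead to interferon induction, 3 were higher and 4 lower in DKO, where 19.1% and 16.3% of all genes were called, so the count of higher genes was near the background. Ikbke, which encodes a kinase that activates interferon regulatory factors, measured 34.7, 35.9 and 33.1 CPM in WT, 63.1, 69.8 and 65.7 in Cbl-/-, 44.1, 47.02 and 40.3 in the libraries labelled Cbl-b-/- and 84.8, 85.3 and 77.3 in those labelled DKO. It was raised in all 3 knockouts, by 0.94 (adjusted p = 8.9e-08, SE 0.07) in Cbl-/-, 0.34 (adjusted p = 0.033, SE 0.07) in Cbl-b-/- and 1.25 (adjusted p = 1.0e-09, SE 0.07) in DKO, and its departure from the sum was -0.03 (adjusted p = 0.90, SE 0.10). Traf3, an adaptor of this route, rose in Cbl-/- (0.49) and DKO (0.43 (adjusted p = 9.7e-05, SE 0.07)), and had 0.08 (adjusted p = 0.91, SE 0.07) in Cbl-b-/-. Tlr3, the gene of the endosomal receptor for double-stranded RNA, rose in DKO by 0.50 (adjusted p = 3.1e-04, SE 0.09), beside -0.03 and -0.05 in the single knockouts, neither past the threshold. Tlr9, the receptor gene for unmethylated DNA, fell in DKO, at -1.14 (adjusted p = 5.5e-06, SE 0.13), with levels of 19.8, 18.1 and 19.01 CPM in WT, 13.4, 16.6 and 13.1 in Cbl-/-, 15.8, 13.3 and 15.4 in the libraries labelled Cbl-b-/- and 10.7, 8.17 and 7.01 in those labelled DKO.

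Of 13 restraints on the pathway 7 were higher in DKO and none lower, again beside 19.1% and 16.3% of all genes. Socs3, the gene of a cytokine signalling inhibitor, measured 5.52, 6.13 and 5.07 CPM in WT, 18.1, 18.5 and 19.5 in Cbl-/-, 9.70, 9.71 and 10.7 in the libraries labelled Cbl-b-/- and 20.3, 24.5 and 18.7 in those labelled DKO. It was raised in Cbl-/- by 1.74 (adjusted p = 1.4e-08, SE 0.11) and in Cbl-b-/- by 0.84 (adjusted p = 0.0013, SE 0.11), and with 1.92 (adjusted p = 1.6e-09, SE 0.11) in DKO it fell short of the sum, with a departure of -0.66 (adjusted p = 0.0067, SE 0.15). Tnfaip3, which encodes the ubiquitin-editing enzyme A20, rose by 0.84 (adjusted p = 8.8e-06, SE 0.09) in Cbl-/- and 1.24 (adjusted p = 2.8e-08, SE 0.09) in DKO, with 0.23 (not past the threshold) in Cbl-b-/-. Samhd1, the gene of an enzyme that degrades deoxynucleotides, had 0.09 and -0.02 in the single knockouts (neither past the threshold), 0.72 (adjusted p = 2.1e-07, SE 0.06) in DKO and a departure of 0.65 (adjusted p = 1.0e-04, SE 0.09). Ptpn6, the gene of the phosphatase SHP-1, rose by 0.32 (adjusted p = 3.0e-04, SE 0.06) in DKO.

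**Figure D5:**
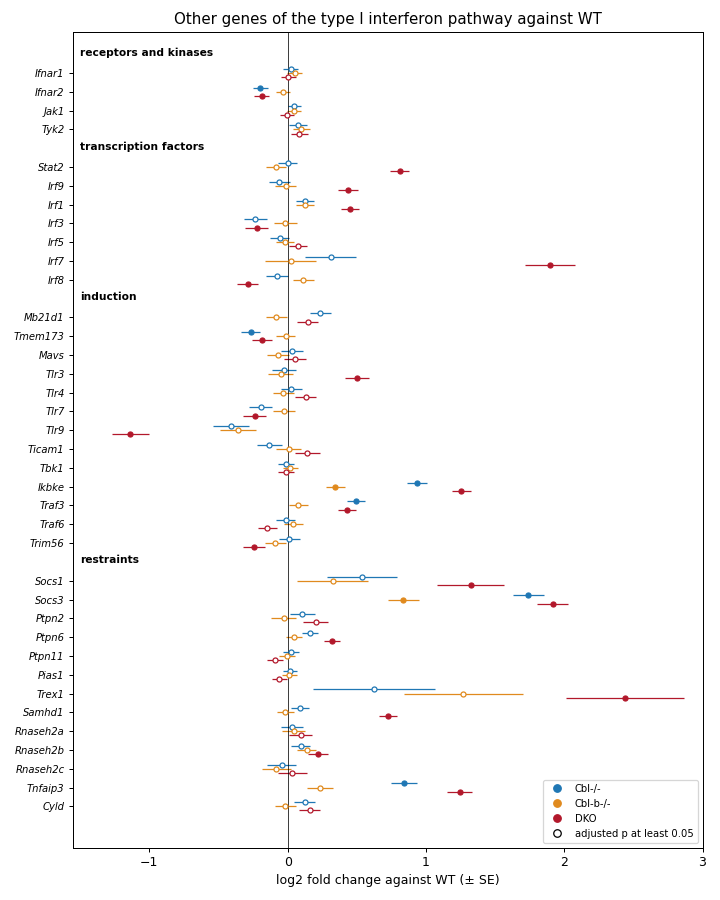
Log2 fold change against WT (horizontal axis, points with standard errors) of the 37 pathway genes tested (vertical axis, grouped by role), for Cbl-/- and for the libraries labelled Cbl-b-/- and DKO. Of the transcription factors Stat2 and Irf7 lie far from 0 for DKO alone, whereas Ikbke and Socs3 lie above 0 in all 3.

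The members lie on 14 chromosomes, and 10 of them have another member within 100000 bases. These are Rsad2 and Cmpk2, then Parp14, Dtx3l and Parp9, then Ifit2, Ifit3 and Ifit1, and Oas2 with Oas3. The log2 fold changes in DKO against WT within these sets were 1.85 and 1.95, then 1.10, 0.83 and 0.84, then 2.07, 2.10 and 2.15, and 0.68 and 1.00. Within each set the values lay close together next to the range over all members.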

How the data were processed

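The deposited values are raw read counts by gene in 12 libraries, which the authors did not normalize. Per the labels' protocols these were made with a stranded TruSeq kit for messenger RNA, and the build was GRCm38.p5 per the submitters' processing notes. No aligner, counter or strand setting is named in the sources used here. The table lists 15555 genes (15506 with a symbol, 49 without), each with at least 1 count in WT replicate 1, so a gene without reads there has no row.

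Counts were tested with edgeR 4.0.16 in R 4.3.3 (TMM scaling, filterByExpr by genotype, robust quasi-likelihood F test, all 12 libraries sharing a trend of the spread). Benjamini-Hochberg adjustment ran over the 12671 genes tested, for 7 contrasts, called at 0.05 without a fold limit. The 2884 other genes were left out. The steps were tested on simulated data. Library totals were 21048103 to 43946503 counts. The biological coefficients of variation, fitted for each genotype alone, were 5.41% (WT), 4.25% (Cbl-/-), 7.88% (Cbl-b-/-) and 11.9% (DKO). The tests shared the spread of each gene over all genotypes. The SE and adjusted p of small changes in DKO therefore carry its larger spread only in part. Replicates differed by more than sampling noise in all 12 pairs within genotypes (chi-square per degree of freedom 3.96 to 56.3), so none was counted as a repeat. Exonic lengths came from GENCODE vM21 and promoters from RefSeq. No batch is named in the labels.

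Values in every library are given for the 3 members of each role with the highest mean log2 level, the 3 largest and 3 smallest changes in DKO, and members past the threshold in a single knockout or, up to 6 by smallest p, in the non-additivity contrast. Of the pathway list, up to 4 genes per role by smallest p in DKO are named, and 1 listed gene is not reported here. Members and lists were chosen with earlier results of these data known. Alternatives were DESeq2 1.42.0, limma voom 3.58.1, other scalings and filters, a replicate block, fits on the genotypes compared only, and leaving out each library.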

Additional observations from a re-analysis of the deposited data

Results flagged for a closer look

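For 37 members the change in the libraries labelled DKO differed from the sum of the changes in both single knockouts, by a test of the difference itself (edgeR's quasi-likelihood test of the non-additivity contrast, Benjamini-Hochberg adjusted p under 0.05). All 37 lay above the sum, by the following log2 departures. In the ISG15 system the departures were Isg15 1.59, Usp18 1.39, Herc6 0.89 and Trim25 0.58. Among the sensors they were Ifih1 0.88, Ddx58 0.86, Dhx58 0.87 and Zbp1 1.93. Among effectors that act on RNA they were Ifit1 1.78, Ifit2 1.59, Ifit3 1.91, Eif2ak2 0.65, Oas1a 0.80, Oas2 0.52, Oas3 0.96, Oasl2 1.41, Adar 0.44 and Samd9l 0.52. For the membrane, GTPase and nucleotide effectors the values were Mx1 1.44, Bst2 0.71, Rsad2 1.40 and Cmpk2 1.48. The ADP-ribosyltransferase and ubiquitin ligase genes had Parp9 0.66, Dtx3l 0.61, Parp12 0.64, Parp14 0.78, Trim21 0.31 and Trim30a 0.77. The nuclear and other genes had Sp100 0.93, Ifi204 1.00, Phf11b 1.47, Ifi35 0.75, Xaf1 0.97, Rtp4 1.18, Lgals3bp 0.73, Epsti1 0.74 and Tor3a 0.48. Departures on the log2 scale depend on that scale, and all of these use the same 12 libraries, so they are not independent of each other. The direction rests on the labels Cbl-b-/- and DKO, which the Cblb counts did not bear out.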

How the results depend on the processing

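The count of 39 members higher in DKO than in WT was the same under all 21 alternatives, and of 819 values of single genes in that comparison none changed its call or sign. No member's called value reversed in any comparison. Leaving out each library in turn gave 0 to 5 members in Cbl-/- against WT, 0 to 0 in Cbl-b-/- against WT, 39 to 39 in DKO against WT, 38 to 39 in DKO against Cbl-/-, 39 to 39 in DKO against Cbl-b-/-, 0 to 6 in Cbl-b-/- against Cbl-/- and 35 to 38 for the departure from the sum. In these fits 415 to 1215 of all genes were called higher in Cbl-/- against WT, and 307 to 1060 lower in Cbl-b-/- against Cbl-/-. Of the 3 members called in Cbl-/-, 1 was left without both WT replicate 3 and Cbl-/- replicate 3, an alternative chosen after seeing the data. The 1 member called in Cbl-b-/- against Cbl-/- became 3 with DESeq2, 7 in a fit of only those genotypes and 0 without both of those replicates. Over all genes the number called lower went from 522 to 715, 953 and 291 in these 3 fits, and the cause was not tested. Scaling by total counts shifted the median of all genes in the departure from the sum to -0.11.

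Over all genes tested, replicate numbers showed no pairing of the libraries. Deviations of same-numbered libraries from their genotype means correlated at -0.10 to 0.06 in 18 pairs, and 2 of 12 libraries correlated best with their own number. With the number as a replicate block, 2 members were called in Cbl-/- against WT, 2 in Cbl-b-/- against Cbl-/-, 39 in DKO against WT and 37 for the departure from the sum.

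The members' lowest count was 48. Ifnb1 had too few counts to be tested, and the other interferon genes listed have no row and were not analysed here.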

Other observations

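A gene of the pathway list outside the naming rule, chosen after its values were seen, is Trex1, which encodes a nuclease that clears cytosolic DNA. It measured 9.28, 4.31 and 19.7 CPM in WT, 14.3, 14.6 and 20.6 in Cbl-/-, 25.6, 30.05 and 22.1 in the libraries labelled Cbl-b-/- and 67.1, 53.9 and 54.2 in those labelled DKO. WT replicate 2 and WT replicate 3 differed widely, and the log2 fold change in DKO against WT was 2.44 (adjusted p = 0.0021, SE 0.43) with edgeR's quasi-likelihood test. The other restraints higher in DKO were Socs1, an inhibitor of Janus kinases, at 1.32 (adjusted p = 4.6e-04, SE 0.24), and Rnaseh2b, a subunit of a nuclease that removes ribonucleotides from DNA, at 0.22 (adjusted p = 0.023, SE 0.07). Of the transcription factors, Irf8, a factor of monocyte and dendritic cell development, and Irf3, which induces interferon genes, were lower, at -0.29 (adjusted p = 0.0079, SE 0.08) and -0.22 (adjusted p = 0.046, SE 0.08).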
